A study of Ovis aries with 5 samples.

Results

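Bivalent regions are stretches of chromatin that carry trimethylation of histone H3 at lysine 4 (H3K4me3), a mark of promoters, together with trimethylation at lysine 27 (H3K27me3). In perirenal adipose tissue of fetal sheep, 1862 of 14729 autosomal H3K4me3 regions shorter than 8000 bp were bivalent by position, which is 12.6% (95% Wilson interval 12.1 to 13.2%). A region was taken from the list of H3K4me3 regions found in both animals when it lay on chromosomes 1 to 26 and shared at least 1 bp with a listed H3K27me3 region. The members were therefore chosen by measured H3K4me3 and H3K27me3 positions, and the presence of those marks in them is not a finding. Acetylation of lysine 27 (H3K27ac) did not enter the choice, and it divided the members into 362 regions that overlapped the joint H3K27ac list and 1500 that did not.

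H3K4me3 is deposited around transcription start sites by the COMPASS and Trithorax family of enzymes, and H3K27me3 by Polycomb repressive complex 2. Promoters with both marks are best known from embryonic stem cells, where many belong to developmental regulators that are silent or weakly transcribed. H3K27ac marks active promoters and enhancers, and because acetylation and trimethylation use the same lysine, a single H3 tail cannot carry both on that residue. A nucleosome has a pair of H3 tails and a tissue holds many cells and alleles.

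Chromatin immunoprecipitation with sequencing (ChIP-Seq) was applied to perirenal fat, a depot around the kidney, from 2 Merino fetuses collected at about 132 days post conception, from ewes on a maintenance diet, with no treatment and no genetic change stated. Each fetus gave 1 H3K4me3 and 1 H3K27ac library, called replicate 1 and replicate 2 after the fetus number in the labels, and chromatin pooled over the fetuses gave 1 input library. After duplicates were removed the H3K4me3 libraries held 92882463 and 109652707 tags (aligned reads), the H3K27ac libraries 144038222 and 145716523, and the input 26651829. H3K27me3 entered only as the positions of its joint regions, so its level was not measured here. No sample in the labels corresponds to that list. The study's methods give 2 animals for H3K27ac and H3K27me3, and a different sequencer for H3K27me3. They do not say whether the animals were the same, and the labels do not tie the list to these fetuses. The same methods give a slightly earlier day of gestation and a further animal for H3K4me3, and the labels were followed here. With 2 animals and no condition to compare, no test of a group difference was possible, so the values below are descriptions, and regions are not replicates of one another. The intervals given for shares of regions cover counting error only. The tissue label could not be checked against marker genes, because no gene annotation of the Oar_v3.1 build was used here. In bulk tissue, marks that sit on the same nucleosome cannot be told apart from marks that sit in different cells or on different alleles.

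Bivalent regions carried H3K27ac far less often than the other H3K4me3 regions did. The joint H3K27ac list overlapped 19.4% of members (17.7 to 21.3%) and 62.7% of the 12867 autosomal regions of the same length range without H3K27me3 (61.8 to 63.5%), against 57.2% of all 14729 regions. The lower share in members held on 26 of 26 autosomes, where it ranged from 6.25 to 27.3% in bivalent regions and from 45.5 to 70.9% in the others. With H3K27ac peaks of both libraries at every false discovery rate (FDR) in place of the joint list, 377 members (20.2%) were acetylated against 63.7% of all regions. Counted in each library on its own at every FDR, peaks of replicate 1 met 34.6% of members and peaks of replicate 2 met 21.4%. The corresponding shares of the other regions were 83.3% and 70.9%.

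Acetylation was also less common the more of a member lay under H3K27me3. Among the 94 members with under 25% of their length inside H3K27me3 regions, 49 had H3K27ac, which is 52.1% (42.2 to 61.9%). The share was 31.2% of 279 members with 25 to 50% cover, 31.8% of 337 with 50 to 75%, and 14.5% of 663 with 75% to under 100%. Of the 489 members wholly covered by H3K27me3, 23 had H3K27ac, which is 4.70% (3.15 to 6.96%). The shares at 25 to 50% and at 50 to 75% cover lay within each other's intervals, while the lowest and the highest classes were well apart. Cover is a percent of region length, and the part of length in this trend was not tested.

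Longer bivalent regions were more often acetylated. H3K27ac overlapped 8.84% of the 147 members under 1500 bp, 15.6% of 545 from 1500 to 2500 bp, 18.9% of 524 from 2500 to 3500 bp, 22.9% of 384 from 3500 to 5000 bp and 29.4% of 262 from 5000 to 8000 bp. Regions without H3K27me3 stood at 49.7, 60.1, 70.6, 70.7 and 59.2% in the same classes, so the gap to the members was present at every length. A longer region offers more bases for an overlap of at least 1 bp, and the part of this in the rise was not tested.

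**Figure D1:**
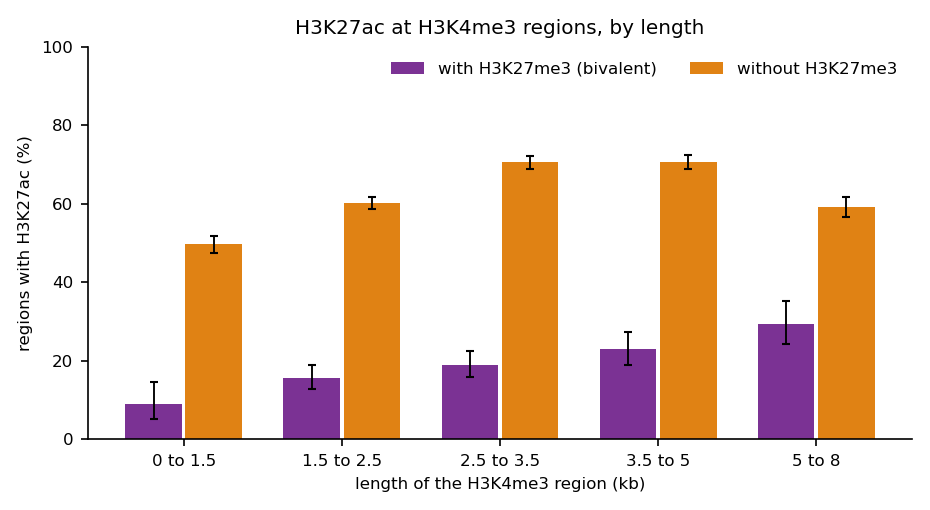
Share of autosomal H3K4me3 regions that overlapped the joint H3K27ac list (y axis, percent) by length class of the region in kb (x axis), for bivalent regions and for regions without H3K27me3. Bars are shares and error bars 95% Wilson intervals. The bivalent bars rise from 8.84% to 29.4%, and each lies below the bar without H3K27me3 beside it.

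The members spanned 812 to 7978 bp with a median of 2900 bp and quartiles of 2104 and 3997 bp. Acetylated members had a median of 3351 bp and non-acetylated members 2816 bp, and the other H3K4me3 regions had a median of 2557 bp. Length is bounded by the rule, so the regions on each side of the limit are given only to show it. Just inside were a region on chromosome 4 of 7978 bp, a region on chromosome 14 of 7977 bp and a region on chromosome 1 of 7974 bp. The first regions with H3K27me3 just outside measured 8001 bp (chromosome 14), 8027 bp (chromosome 4) and 8063 bp (chromosome 16). Of 621 autosomal regions of 8000 bp or more, 112 overlapped H3K27me3, which is 18.0%. The share of all regions that were bivalent rose from 6.53% under 1500 bp to 14.8% between 2500 and 3500 bp and was 16.2% from 5000 to 8000 bp.

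H3K27me3 usually covered most of a bivalent region and ran past its edge. The members took up 6.04 Mb, of which 4.59 Mb (75.9%) lay under H3K27me3. The median cover was 86.7% of a member's length, with 91.9% in members without H3K27ac and 60.3% in members with it. An H3K27me3 region reached over 1 edge of the H3K4me3 region in 918 members (49.3%) and contained the whole H3K4me3 region in 488 (26.2%). In 250 members (13.4%) H3K27me3 lay inside the H3K4me3 region, and in 206 (11.1%) separate H3K27me3 regions reached each edge. The arrangement differed with acetylation. Full containment was seen in 31.0% of non-acetylated members (28.7 to 33.4%) and 6.35% of acetylated ones (4.27 to 9.35%), whereas H3K27me3 inside the H3K4me3 region was seen in 10.2% (8.77 to 11.8%) and 26.8% (22.5 to 31.6%).

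Short overlaps were rare. H3K27me3 covered under 100 bp in 13 members and under 200 bp in 27, and 18 of the 12867 regions outside the class lay within 100 bp of an H3K27me3 region. A single H3K27me3 region accounted for 1564 members (84.0%), a pair for 288 and 3 regions for 10. Of 15430 autosomal H3K27me3 regions, 2103 touched a member (13.6%). Those that did had a median length of 3165 bp and those that did not 2299 bp, and the part of length in this was not tested.

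**Figure D2:**
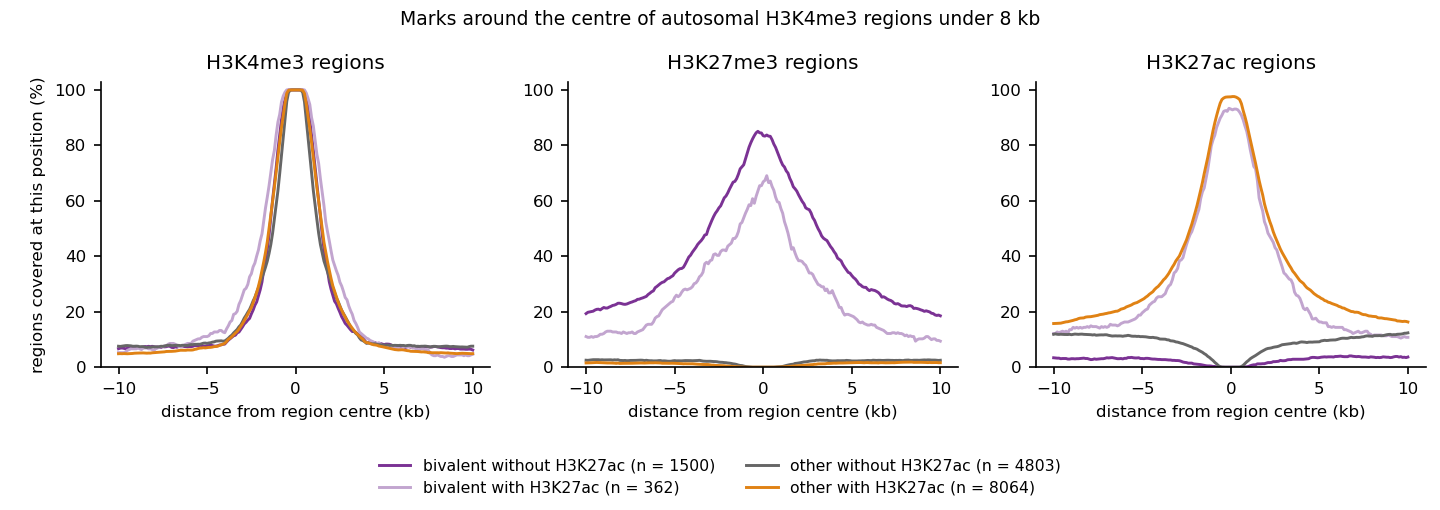
Percent of regions covered by each mark (y axis) at 100 bp steps within 10 kb of the centre of the H3K4me3 region (x axis, kb), with 1 line for each of 4 classes. H3K27me3 covers 83.5% of non-acetylated and 66.9% of acetylated bivalent regions at the centre and declines over several kb, and H3K27ac stays low on both sides of non-acetylated bivalent regions.

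The plot of marks around region centres showed H3K27me3 extending well beyond the H3K4me3 signal. At the centre it covered 83.5% of non-acetylated and 66.9% of acetylated members. At 5 kb from the centre it still covered 33.5% and 21.8%, and at 10 kb 18.9% and 10.2%. H3K4me3 had fallen to 7.93% and 9.25% at 5 kb. In regions outside the class, H3K27me3 covered at most 2.51% at 2, 5 or 10 kb.

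H3K27ac was sparse around the members that did not overlap it. At 5 kb from the centre it covered 3.30% of non-acetylated members and 10.1% of non-acetylated regions without H3K27me3. The nearest H3K27ac region lay at a median of 45702 bp from non-acetylated members and 12155 bp from the other non-acetylated regions. Within 5 kb of the edge, 152 of 1500 such members (10.1%, interval 8.71 to 11.8%) had an H3K27ac region, against 1532 of 4803 of the others (31.9%, interval 30.6 to 33.2%). Members also lay in emptier surroundings, with a median distance to the nearest H3K4me3 region of 40073 bp against 16820 bp for the regions outside the class. The part of that spacing in the distance to H3K27ac was not tested.

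In the 362 acetylated members, the 3 marks mostly met on the same bases. H3K27ac covered a median of 98.7% of the H3K4me3 region, and it shared bases with H3K27me3 inside the region in 347 members (95.9%), with a median of 1590 bp under all 3 marks. Every member holds H3K27me3 by the rule, so with H3K27ac over nearly the whole of most regions this sharing was largely fixed by cover. In the other 15 members H3K27ac and H3K27me3 occupied separate bases of the same H3K4me3 region. The H3K4me3 summit, the base of highest tag pile-up, lay inside H3K27ac in 91.7% of acetylated members in replicate 1 and 94.8% in replicate 2. It lay inside H3K27me3 in 55.5% and 65.5% of them, and in 77.5% and 81.1% of non-acetylated members. Median H3K27me3 cover was 60.3% in acetylated and 91.9% in non-acetylated members, and the part of cover in the summit shares was not tested.

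Where acetylation was present on a member, its signal was somewhat lower than on other acetylated regions. H3K27ac tag density, the tags of the overlapping peaks divided by their length, had a median of 152.6 tags per kb in replicate 1 (360 members with a peak) and 141.7 in replicate 2 (348 members). The other acetylated H3K4me3 regions stood at 165.6 and 156.9 tags per kb. Fold enrichment over the input, the authors' value, was 27.7 and 25.8 in members and 32.1 and 29.7 in the others. Both libraries gave the same order on both measures, and the input was shallower than each ChIP library.

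By tag density and by fold over the input, H3K4me3 had a somewhat lower median in bivalent than in other regions in replicate 1. The difference was larger in replicate 2. Members held 139 to 2933 tags in replicate 1, with a median of 565, and a median of 605.5 in replicate 2. The other regions had medians of 503 and 751 tags, so by tag count members stood higher in replicate 1 and lower in replicate 2. Density was taken per kb of peak and scaled to 1000000 tags of the library after duplicates. Its median over all members was 2.42 in replicate 1 and 2.18 in replicate 2, against 2.54 and 2.87 in the other regions. In members without H3K27ac it was 2.39 and 2.10, and in members with H3K27ac 2.55 and 2.68. Regions outside the class without H3K27ac stood at 2.43 and 2.55, and those with H3K27ac at 2.61 and 3.04. Acetylated regions thus had the higher median in both animals, inside and outside the class. Fold over the input had medians of 51.1 and 55.8 in members and 55.6 and 74.4 in the other regions. By length, replicate 1 density in members was not lower under 2500 bp. It was 2.37 from 2500 to 3500 bp, 2.36 from 3500 to 5000 bp and 2.28 from 5000 to 8000 bp. The other regions stood at 2.61, 2.58 and 2.54 in these classes. The H3K4me3 libraries also took part in the choice of regions, so these levels are given without a test.

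**Figure D3:**
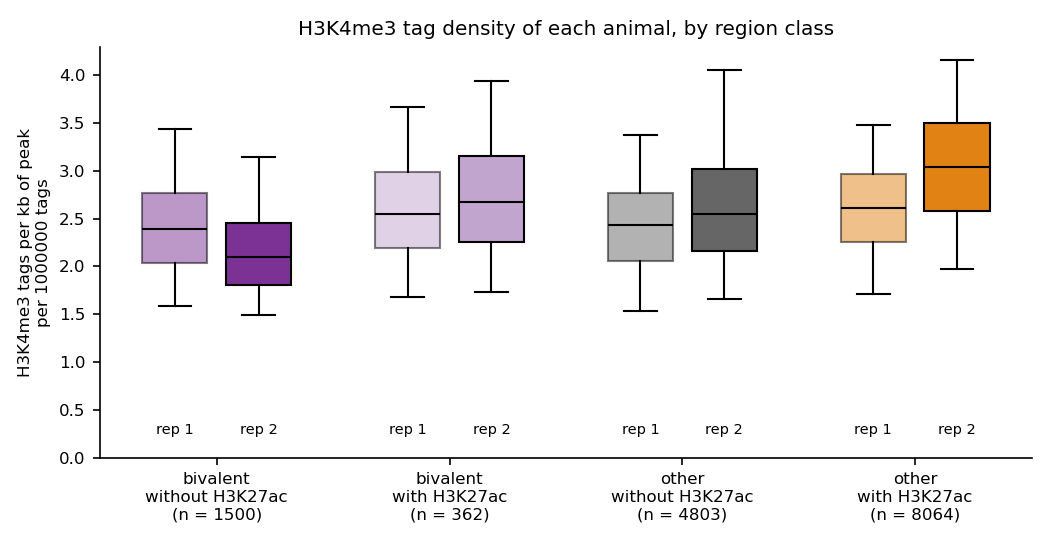
H3K4me3 tag density (y axis, tags per kb of peak per 1000000 tags after duplicate removal) in 4 classes of autosomal regions (x axis), with 1 box for each animal (rep 1, rep 2). Boxes span the quartiles with the median as a line, and whiskers the 5th to the 95th percentile over regions. By this measure, non-acetylated bivalent regions have a lower median in replicate 2 (2.10) than in replicate 1 (2.39), and the other classes a higher one.

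By tag density, though not by fold over the input, the animals differed in H3K4me3 in opposite directions at bivalent and at other regions. Density was lower in replicate 2 at 1207 members (64.8%, interval 62.6 to 67.0%), against 30.7% of all 14729 regions and 25.7% of those outside the class. The median log2 ratio of replicate 2 over replicate 1 was -0.13 in members, which is 0.915-fold, and 0.18 in other regions, which is 1.13-fold. Members without H3K27ac had a median of -0.17, with 70.6% lower in replicate 2, and members with H3K27ac a median of 0.06, with 40.9% lower. The corresponding medians outside the class were 0.09 and 0.22. The median for members lay under that for other regions on 26 of 26 autosomes.

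The sign of the members' own ratio depended on the measure, while the gap to the other regions kept its direction. With the authors' fold enrichment over the input, the median log2 ratio was 0.16 in members, 0.13 in members without H3K27ac and 0.42 in other regions, a gap of -0.25 against -0.30 with tag density. With tags divided by the length of the joint region, the gap was -0.47. Among acetylated regions alone the gap in H3K4me3 tag density was -0.16. H3K27ac tag density could be compared only in acetylated regions with peaks in both libraries (346 members), and there it showed no such gap. Its median log2 ratio of replicate 2 over replicate 1 was -0.10 in the acetylated members and -0.10 in the other acetylated regions. It was lower in replicate 2 in 75.1% and 74.3% of them. The share of members met by an H3K27ac peak of every FDR did differ, at 34.6% in replicate 1 and 21.4% in replicate 2. The other regions stood at 83.3% and 70.9%. With 1 H3K4me3 library for each fetus, a difference between the fetuses cannot be told apart from a difference between the immunoprecipitations.

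**Figure D4:**
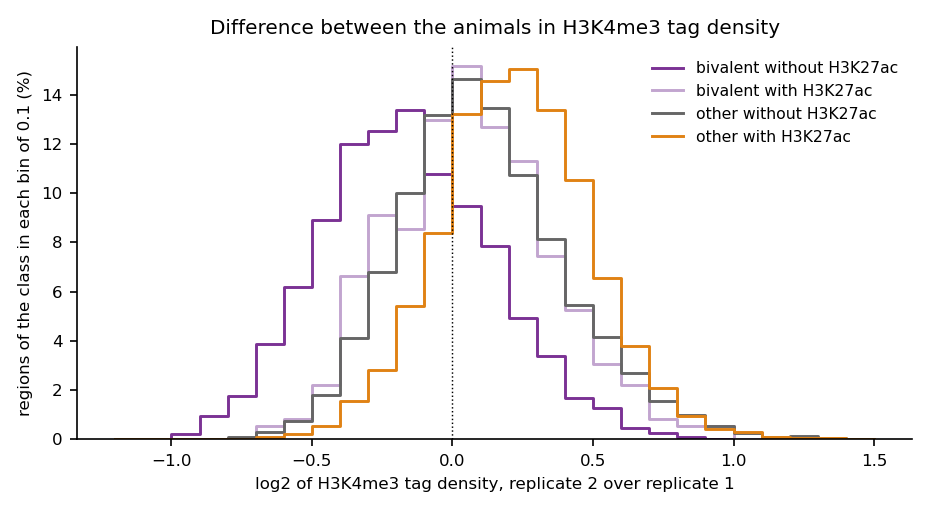
Distribution of the log2 ratio of H3K4me3 tag density, replicate 2 over replicate 1 (x axis, bins of 0.1), as percent of the regions in each of 4 classes (y axis). The dotted line marks equal density. The curve for non-acetylated bivalent regions (median -0.17) lies left of the others, and that for other acetylated regions (median 0.22) lies furthest right.

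The difference between the libraries also bore on which regions could become members, since a member had to be found in both. Replicate 1 alone gave 21738 autosomal H3K4me3 peaks under the length limit at an FDR of at most 1%, of which 4113 overlapped H3K27me3 (18.9%). Replicate 2 alone gave 17244, of which 2053 did (11.9%). Peaks outside the joint list accounted for the difference. Of 6096 such peaks in replicate 1, 2157 (35.4%, interval 34.2 to 36.6%) overlapped H3K27me3, against 63 of 1898 in replicate 2 (3.32%, interval 2.60 to 4.22%). Most of the 2157 were not without signal in the other animal, since 1753 (81.3%) met a replicate 2 peak when peaks of every FDR were counted. In the other direction, 54 of the 63 (85.7%) met a replicate 1 peak. No such share is given for peaks without H3K27me3, so these values do not set the overlapping peaks apart. The FDR of members was nearer the limit in replicate 2, with a median lowest value of 0.51% against 0.080% in replicate 1, and over all 14729 regions the medians were 0.29% and 0.080%.

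Across members, log2 tags of the animals had a Pearson correlation of 0.78 (n = 1862 regions), against 0.87 in regions outside the class (n = 12867). These points share 1 pair of libraries and both scale with region length, and after division by peak length the values were 0.60 and 0.66.

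The share of H3K4me3 regions that were bivalent varied about the autosomes, from 5.33% on chromosome 25 (12 of 225 regions) to 21.0% on chromosome 6 (91 of 434), with a median of 13.1%. The number of bivalent regions per Mb had a Pearson r of 0.46 and a Spearman rho of 0.32 with the number of H3K4me3 regions per Mb, over n = 26 chromosomes of the same libraries. The bivalent share, which has the H3K4me3 count as its denominator, had an r of -0.53 and a rho of -0.66 with it, and both pairs are given as descriptions. A bivalent nearest neighbour was more common for members than for regions outside the class. The nearest H3K4me3 region was itself bivalent for 693 members (37.2%, interval 35.1 to 39.4%) and for 892 regions outside the class (6.93%, interval 6.51 to 7.38%). Of all 14729 regions, 12.6% were bivalent. An H3K27me3 region was shared with another member by 125 members (6.71%), and the part of this in the neighbouring was not tested. Within 250 kb on either side, 887 members (47.6%) stood alone and 125 (6.71%) had 4 or more other members.

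**Figure D5:**
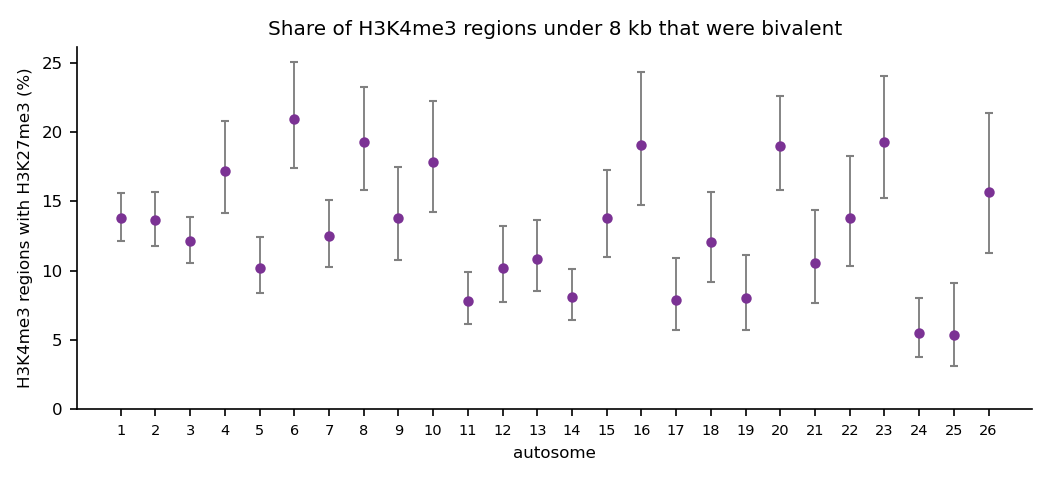
Share of autosomal H3K4me3 regions under 8 kb that overlapped H3K27me3 (y axis, percent) on each of the 26 autosomes (x axis). Points are shares and error bars 95% Wilson intervals. Chromosome 6 has the highest share (21.0%) and chromosome 25 the lowest (5.33%).

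The densest group of members lay on chr20:30000380-30382072 (Oar_v3.1 coordinates), where 17 of 30 H3K4me3 regions within 382 kb were bivalent and none of the 17 had H3K27ac, although 9 of the 30 regions did. Their median H3K27me3 cover was 100%, and they held 252 to 2933 H3K4me3 tags in replicate 1 and 310 to 2669 in replicate 2. On chr3:132241805-132696495, 13 of 16 H3K4me3 regions were bivalent, and 8 of these 13 were acetylated, a larger part than the 19.4% of all members. Their median length was 4588 bp and their median tag counts were 884 and 1302. The third group, chr20:29153850-29464578, had 12 bivalent regions among 20, of which 1 was acetylated. These groups were picked by a rule of member density, so their counts of members are no finding. The first had no acetylated member and the second had most of them acetylated. No gene is named in them, because the coordinates of the files were not matched to an annotation of the same build.

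The members named next were picked for the highest H3K4me3 density with or without H3K27ac, so their levels do not compare these classes. Over the whole classes, the 95th percentile of scaled density was 3.66 in replicate 1 and 3.94 in replicate 2 for acetylated members. For non-acetylated members it was 3.44 and 3.15. The member on chr20:30239220-30245298 in the first group held 2933 tags in replicate 1 and 2669 in replicate 2 over 6079 bp, was wholly covered by H3K27me3 and had no H3K27ac peak in either library. Its fold enrichment over the input was only 24.9 and 25.5, under the median of members in both animals. The member on chr3:41794380-41800870 held 2647 and 3943 tags with fold values of 74.4 and 68.9. H3K27me3 covered 20.5% of it, and although it was outside the joint H3K27ac list it had H3K27ac peaks of 1688 and 1511 tags in the libraries. Of the acetylated members the densest by rank was chr1:168390829-168396291, with 2209 and 2653 H3K4me3 tags, H3K27ac over its whole length and H3K27me3 over 19.5% of it. The acetylated member on chr6:15302905-15306257 carried all 3 marks, with 1296 and 1480 H3K4me3 tags and H3K27me3 over 81.7% of its length. The H3K27ac peaks that overlapped it held 2354 and 2107 tags, which need not all lie inside the member.

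The members with the most bases under H3K27me3 were all near the length limit and had no H3K27ac. On chr1:24680094-24688067 all 7974 bp were covered, with 2147 tags in replicate 1 and 1716 in replicate 2. The members on chr4:32060909-32068886, chr18:46654875-46662842 and chr16:28199726-28207625 were covered over 99.7, 99.6 and 100% of their length. The fifth was the region at OTX1, a homeobox transcription factor of forebrain development.

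Gene names were available for members inside selective sweep regions, the stretches that the study listed as differing between domestic and wild sheep, each with its genes. In all, 22 members lay in 18 of 635 sweep regions. This was 1.18% of members, next to 1.28% of all 14729 regions, so members were not more common there. H3K27ac overlapped 6 of the 22, H3K27me3 covered 8 of them wholly, and 13 had lower H3K4me3 density in replicate 2. The genes below are those the study listed for the sweep, and the H3K4me3 region was not assigned to a start site.

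The OTX1 member, chr3:45050079-45057946, was wholly inside H3K27me3 and had 1109 H3K4me3 tags in replicate 1 and 1256 in replicate 2, and no H3K27ac peak. Its scaled density was 0.626-fold in replicate 2, among the lower ratios of this set. At HMGA2, a chromatin protein tied to fetal growth and body size, the member chr3:153783728-153786941 held 635 and 731 H3K4me3 tags and H3K27me3 covered 60.2% of it. It was outside the joint H3K27ac list, and replicate 1 alone had an H3K27ac peak there, of 1400 tags. The sweep of PLAG1, a zinc-finger transcription factor linked to growth, which also holds CHCHD7, had a member on chr9:36205899-36209808 with 535 and 951 tags, 76.4% H3K27me3 cover and no H3K27ac. In these 3 members without joint H3K27ac, tag counts were higher in replicate 2, but after division by peak length and depth only the HMGA2 and PLAG1 members were (1.09-fold and 1.02-fold).

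Of the 6 acetylated members in sweeps, 3 lay at FRZB, NR5A2 and WFDC1. At FRZB, which encodes a secreted antagonist of Wnt ligands, the member chr2:125756372-125759933 had 1043 and 1254 H3K4me3 tags and H3K27ac over its whole length. The overlapping H3K27ac peaks held 808 and 399 tags. H3K27me3 covered 25.2% of the member. At NR5A2, a nuclear receptor of steroid and bile acid metabolism, the member chr12:76977763-76984436 had 1325 and 1967 H3K4me3 tags, with H3K27me3 over 96.0% and H3K27ac over 52.5% of 6674 bp. These marks must share bases, since their covers add up to more than the region. At WFDC1, which encodes a secreted protein with a whey acidic protein core, the member chr14:10033894-10041870 carried 1202 and 1739 H3K4me3 tags. Its overlapping H3K27ac peaks held the most tags of the set, 4679 in replicate 1 and 2463 in replicate 2. Such peaks can run past the region, so this does not rank the H3K27ac within it. H3K27me3 covered 69.9% of the member. In all 3, H3K27ac tag counts were lower in replicate 2. Scaled H3K4me3 density in replicate 2 was 0.908-fold that of replicate 1 at FRZB, 0.850-fold at NR5A2 and 1.31-fold at WFDC1.

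Other named members had no H3K27ac in the joint list. At TCHH, which encodes the hair follicle protein trichohyalin, the member chr1:101006309-101008432 was wholly covered by H3K27me3 and held 501 and 438 tags. The sweep of DUOX2, DUOXA2 and DUOXA1, whose products make hydrogen peroxide for thyroid hormone synthesis and their maturation factors, had 2 members. That on chr7:62277175-62278895 had 517 and 539 tags with 58.9% H3K27me3 cover, and that on chr7:62280461-62282671 had 706 and 406 tags and was wholly covered. Neither had an H3K27ac peak. At CACNB3, a subunit of voltage-gated calcium channels, and DDX23, a splicing helicase, the member chr3:137179532-137181886 had 603 and 406 tags with 68.5% H3K27me3 cover and an H3K27ac peak in replicate 1 alone, of 512 tags. At GMDS, an enzyme of GDP-fucose synthesis, the member chr20:50240897-50243521 had 440 and 587 tags, full H3K27me3 cover and an H3K27ac peak of 284 tags in replicate 1 alone.

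A gene-dense sweep on chromosome 21 that includes SIRT3, IFITM5 and PSMD13 held 4 members, of 153 to 1136 tags in replicate 1 and 213 to 677 in replicate 2, and 1 of them was acetylated. The members at LAMP3 with MCF2L2, at CAB39L and at B3GAT1 with GLB1L2 and GLB1L3 had no H3K27ac, with 396, 409 and 276 tags in replicate 1 and 346, 336 and 364 in replicate 2. LRRC30 was the closest gene to an acetylated member of 442 and 573 tags, and OLFML2A to a non-acetylated one of 359 and 575 tags. The last 2 members lay in sweeps for which no gene symbol was given.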

How the data were processed

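ChIP DNA came from micrococcal nuclease-treated chromatin of fetal perirenal fat, with antibodies to H3K4me3, H3K27ac and H3K27me3. The submitters' processing notes name CLC Genomics Workbench 7.0 and MACS 1.4.2, and the paper gives Oar_v3.1 as the build. The deposited peak tables hold, for each library, peak positions, tag counts, a score of 10 times the negative log10 of the p-value, fold enrichment (a ratio to the pooled input) and FDR in percent, all as the authors' peak caller wrote them. The authors' joint lists hold positions only, of regions found in both replicates of a mark, and are labelled with FDR limits of 1% (H3K4me3), 10% (H3K27ac) and 5% (H3K27me3). The paper states stricter limits for H3K4me3 and H3K27ac, but the lowest H3K4me3 FDR of a member reached 0.98% in replicate 1 and 1% in replicate 2, so the limits of the lists were used. All 16098 joint H3K4me3 starts and ends were those of library peaks. The 2 library files of H3K27me3 were not used, as the labels list no matching sample.

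Samples were grouped by mark and fetus from the titles. Tags and lengths of a region were summed over the library peaks that overlapped it, and density was tags per kb of those peaks, also per 1000000 tags after duplicates. H3K27ac peaks could run past the H3K4me3 region, and their tags were counted in full. Overlap meant at least 1 bp. Shares have 95% Wilson intervals, with no test. Overlap code was tested on simulated data. The scripts ran in Python 3.11.15 with pandas 2.3.3 for tables, numpy 2.4.6 for intervals and scipy 1.17.1 for shares, and figures were drawn in matplotlib 3.10.9. The members, the classes and the lists were chosen with earlier results of these data known. Named regions were the 5 densest members with and without H3K27ac (by mean rank over the libraries), the 5 with most bases under H3K27me3, all members in sweep regions, the 3 densest groups within 500 kb and those on each side of the length limit. Of the symbols listed for sweeps with a member, 25 of 29 were in a RefSeq gene table of another assembly, used for names only. Alternatives changed the overlap, the length limit, the chromosomes, the FDR, the library and the measure of density. Start sites, CpG islands, the listed genes and sequences were not analysed here, for want of a genome and annotation of the build.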

Additional observations from a re-analysis of the deposited data

Results flagged for a closer look

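Among the 1500 bivalent regions outside the joint H3K27ac list, 15 had H3K27ac peaks in both libraries when peaks of every FDR were counted, a signal in peaks that the joint list does not use. In replicate 1, 10 of the 15 had a peak over the FDR limit of 10%, and in replicate 2, 11 of the 15 did. Their fold over the input had medians of 36.9 and 34.6, above the medians of 27.7 and 25.8 for the members inside the joint list. The share was 1.00% of non-acetylated members (0.607 to 1.64%) and 19.5% of the other non-acetylated regions (18.4 to 20.7%). The member on chr3:41794380-41800870 was among them.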

How the results depend on the processing

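The gap between bivalent and other regions kept its direction in every alternative tried. The members' own median log2 ratio of the animals did not, since it went from -0.13 to 0.16 with fold enrichment over the input, a setting chosen after seeing the data, and from -0.17 to 0.13 in members without H3K27ac. The cause was not tested. No paired analysis was possible because no result came from a test between groups. The number of members, 1862, was 2053 to 4113 with H3K4me3 peaks of a single library, 2 when every peak had to reach an FDR of at most 0.1% in both libraries, and 4635 with peaks at every FDR, a setting chosen after seeing the data. The limit of 0.1% is the one the paper states for H3K4me3. Most regions outside the class missed it as well, since the first quartile of their lowest FDR in replicate 2 was 0.18%. The share with H3K27ac, 19.4%, was 17.9 to 19.7% with the H3K4me3 peaks at an FDR of at most 1% and the H3K27ac peaks at an FDR of at most 10% of a single animal, and 15.2% where H3K27me3 covered at least 50% of the region. Within length classes, also chosen after seeing the data, it was 8.84, 15.6, 22.9 and 29.4%. The median of 605.5 H3K4me3 tags in replicate 2 was 576.5 for the peak with the most tags, and the median length of 2900 bp was 2545 to 2638 bp in peaks of a single library. The gap between bivalent and other regions in the log2 ratio of the animals, -0.30, was -0.47 per kb of the joint region and -0.19 in regions under 1500 bp, both chosen after seeing the data. Start sites and CpG islands were not run, and tags were given for each library in place of leaving 1 out. Limits are 2 fetuses of 1 tissue, H3K27me3 known by position only, and an input of 26651829 tags against 92882463 to 145716523 in the ChIP libraries.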

Other observations

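The fourth densest group of members, picked after its values were seen, lay on chr5:49329884-49818148. There 11 of 18 H3K4me3 regions were bivalent, and none of the 18 overlapped the joint H3K27ac list. The members measured 2082 to 4642 bp, with 301 to 872 H3K4me3 tags in replicate 1 and 415 to 1078 in replicate 2, and H3K27me3 covered a median of 82.3% of their length. On chromosome X, left out by the rule, 611 of 710 H3K4me3 regions under 8000 bp overlapped H3K27me3, which is 86.1% (83.3 to 88.4%). Of the 31942 joint H3K27me3 regions 15430 were autosomal and the rest lay on X. The part of this in the share on X was not tested.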
